A study of Mus musculus with 6 samples.

Results

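The let-7 family of microRNAs (miRNAs) was followed through 6 small RNA libraries from mouse brain cortex. Its members here are the 9 guide strands mmu-let-7a-5p, mmu-let-7b-5p, mmu-let-7c-5p, mmu-let-7d-5p, mmu-let-7e-5p, mmu-let-7f-5p, mmu-let-7g-5p, mmu-let-7i-5p and mmu-miR-98-5p, written below without the species prefix. They were taken by name from the 1182 miRNAs in the table of read counts, and all 9 had enough reads to enter the test of 541 miRNAs. The libraries came from the cortex of untreated adult male mice, 3 with the genotype label fmr1 KO (knockout) and 3 with fmr1 WT (wild type), with genotypes that were siblings of matched age. The sources used here do not give the strain, the exact age or the construction of the Fmr1 allele. The labels call the libraries biological replicates without tying each to a separate animal, so p-values measure the spread between libraries, which may be technical in part. Fmr1 messenger RNA was not measured in these libraries, so the genotype labels were not checked against it.

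Each let-7 miRNA is cut from a hairpin precursor into a short duplex. The guide strand is kept in an Argonaute protein and pairs with messenger RNAs mainly through its seed, while the passenger strand is mostly degraded. The family times developmental transitions in worms and mammals, represses growth and proliferation genes such as Lin28, Hmga and Ras genes, and accumulates as neurons mature. LIN28 binds the loop of let-7 precursors and blocks their processing. FMRP, the RNA-binding protein encoded by Fmr1 and lost in fragile X syndrome, has been found in complexes with Argonaute, and the comparison asks whether miRNA levels differ in cortex without it.

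The mature sequences (RefSeq, build GRCm38.p6, matched by name for 9 of 9) are shown because the members differ at few bases, which bears on how reads can be assigned. Capitals mark the seed, bases 2 to 8 from the 5′ end.
let-7a-5p: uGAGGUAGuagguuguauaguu
let-7b-5p: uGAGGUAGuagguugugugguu
let-7c-5p: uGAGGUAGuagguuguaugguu
let-7d-5p: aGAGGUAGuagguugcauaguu
let-7e-5p: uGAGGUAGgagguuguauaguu
let-7f-5p: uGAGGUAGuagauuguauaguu
let-7g-5p: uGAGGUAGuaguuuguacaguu
let-7i-5p: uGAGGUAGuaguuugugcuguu
miR-98-5p: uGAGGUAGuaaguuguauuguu

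All 9 are 22 bases long and carry the same seed. Relative to let-7a-5p, with positions counted from 1 at the 5′ end and the let-7a base written first, let-7c-5p has A19G, let-7e-5p has U9G and let-7f-5p has G12A. With a pair of changes each, let-7b-5p has A17G and A19G, let-7d-5p has U1A and U16C, let-7g-5p has G12U and U18C, and miR-98-5p has G11A and A19U. The most distant from let-7a-5p is let-7i-5p, with G12U, A17G, U18C and A19U. Of 36 pairs of members, 4 differ by 1 base and 10 by 2 bases, and let-7d-5p and let-7i-5p are farthest apart with 6. For the mismatches allowed in alignment and the handling of reads with several matches, the sources used here give no setting. Reads of the closest members (let-7a with let-7c, let-7e and let-7f, and let-7b with let-7c) may therefore be split between rows, and their separate levels are uncertain to that extent. Of the 970 table rows with a RefSeq mature sequence, 0 others share the seed.

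The row let-7j stands closest to the family by name, and its sequence is shown because it departs inside the seed.
let-7j: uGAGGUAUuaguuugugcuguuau

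It differs from let-7i-5p by G8U and by 2 added bases at the 3′ end. It had 29 to 76 reads per library, at most 0.0315% of those of let-7i-5p. Its levels of 3.22 ± 0.176 CPM in WT against 3.34 ± 1.60 CPM in KO (SD, n = 3 each) had a log2 fold change of 0.06 (SE 0.35, edgeR adjusted p = 0.961).

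The 12 hairpins of the family lie at 8 places in the mouse genome (GRCm38, GENCODE M21). On chromosome 13, minus strand, let-7a-1 (48538179 to 48538272), let-7f-1 (48537829 to 48537917) and let-7d (48536012 to 48536114) lie in exons of the long noncoding RNA gene 6720427I07Rik. On chromosome 15, let-7c-2 (85706603 to 85706697) and let-7b (85707319 to 85707403) lie in an exon of the noncoding Lncppara. Introns of noncoding host genes hold let-7c-1 on chromosome 16 (77599657 to 77599750, Mir99ahg) and let-7a-2 on chromosome 9 (41536716 to 41536811, 3110039I08Rik). Introns of protein-coding genes hold let-7e on chromosome 17 (17830352 to 17830444, Spaca6), let-7g on chromosome 9 (106178840 to 106178927, Wdr82), and let-7f-2 and miR-98 on chromosome X (151912346 to 151912428 and 151913214 to 151913321), both in Huwe1. The hairpin of let-7i (chromosome 10, 122985640 to 122985724, minus strand) overlaps an exon of the transcribed pseudogene D630033A02Rik. Reads of let-7a-5p, let-7c-5p and let-7f-5p each come from a pair of hairpins and cannot be assigned to either.

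Between the arms of the hairpin lies the loop, where LIN28 is known to bind a GGAG motif. Loops with and without these letters are shown for the hairpins of let-7g and let-7b, with GGAG in capitals.
Mirlet7g: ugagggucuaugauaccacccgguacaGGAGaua
Mirlet7b: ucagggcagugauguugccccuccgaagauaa

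Of the 11 let-7 loops examined, 9 hold GGAG on the transcribed strand, and those of let-7b and let-7c-2 do not. Among 633 other mouse hairpins with both arms in RefSeq, 44 (6.95%) hold it between the arms, and among the 42 of these with loops of the same length range (23 to 34 bases) 5 (11.9%) do. A match describes the letters and is not evidence of binding. Among let-7 members with single hairpins, let-7b-5p, whose loop lacks GGAG, had a log2 fold change of -0.26, within the range of those whose loops hold it (-0.45 to -0.07). Only let-7b stands without GGAG in this comparison, and any part of the motif in these values was not tested.

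Total miRNA reads ranged from 11182888 to 15733876 per library. The TMM factors, which scale libraries for differences in composition, ran from 0.827 to 1.09, and levels below are CPM (counts scaled to a common library total) on this scale. The KO libraries lay farther from the WT mean than the WT libraries did, and KO replicate 3 stood farthest: the median absolute difference over 541 miRNAs was 0.46 log2 units there, 0.29 and 0.26 in the other KO libraries and 0.08 to 0.10 in the WT libraries. Each WT library is itself part of the WT mean and the KO libraries are not, so distances of the 2 genotypes are not on equal terms. The KO libraries can be compared with each other. Neuronal and cortical miRNAs (miR-124-3p, miR-128-3p, miR-9-5p, miR-138-5p, miR-132-3p; 5 of 5 present) summed to between 282193 and 424350 CPM in KO and between 310890 and 341493 CPM in WT. Nearly all of this sum came from miR-9-5p and miR-128-3p. In KO replicate 3, miR-124-3p (2118 CPM), miR-138-5p (360.6 CPM) and miR-132-3p (1632 CPM) were the highest of all libraries. There miR-128-3p (90410 CPM) was lowest, and miR-9-5p (228914 CPM) lay between the values of other libraries. Liver miR-122-5p stayed at or below 5.13 CPM in every library. In KO replicate 3 the sum of 7 choroid plexus and cilia miRNAs was 2113 CPM, against 970.4 to 1045 CPM in the other 5 libraries. Olfactory or epithelial miR-200 family miRNAs (5 of 5 present) summed to 904.3 and 970.1 CPM in KO replicates 2 and 3, 15.7 CPM in KO replicate 1 and 83.9 to 290.0 CPM in WT. KO replicate 3 also had the lowest sum of 3 oligodendrocyte miRNAs (558.2 CPM, against 704.7 to 880.0 CPM) and the highest sums of 4 blood miRNAs (120.6 CPM, against 75.4 to 99.4 CPM) and of 5 microglia and leukocyte miRNAs (132.7 CPM, against 87.5 to 107.7 CPM). Members of these lists differed in KO replicate 3: miR-338-3p was highest there (32.7 CPM) while miR-219a-2-3p was lowest (518.0 CPM), miR-486a-5p (38.4 CPM) lowest while miR-451a (80.1 CPM) was highest, and miR-142a-5p lowest (others 10.4 to 16.1 CPM) while miR-150-5p (118.2 CPM) was highest. Of these markers miR-141-3p was at 0 in KO replicate 1. The sum of 4 hindbrain and spinal cord miRNAs was 54.4 to 100.5 CPM in KO, lowest in KO replicate 3, and 67.1 to 74.8 CPM in WT. Nearly all of it came from miR-10a-5p (21.6 to 58.9 CPM) and miR-10b-5p (31.7 to 45.9 CPM), with miR-196a-5p and miR-196b-5p at or below 0.33 CPM in every library. The former was at 0 in KO replicate 3 and the latter in KO replicate 1 and WT replicate 1. The part of other cell types in the let-7 values was not tested. In whole tissue, fewer cells of a type and less of the miRNA per cell cannot be told apart.

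The family was among the most abundant in cortex. The 9 guide strands summed to 981577, 786633 and 557601 reads in KO replicates 1, 2 and 3, and to 1123934, 945414 and 1112405 reads in the WT libraries. This was 7.31%, 5.47% and 4.99% of all miRNA reads in KO and 7.58%, 7.15% and 7.07% in WT. On this scale KO replicate 1 lay within the WT range and the other KO libraries below it. By seed, let-7 ranked 4 in every library, after miR-9-5p, miR-9b-3p (annotated opposite a miR-9 hairpin, with near-identical counts) and miR-128-3p. The row miR-9b-3p held 19.9%, 26.1% and 24.8% of all reads in KO replicates 1, 2 and 3 and 21.3% to 21.9% in WT. Whether it holds the same reads as miR-9-5p was not tested. If it does, that rank and the total behind the percentages count those reads more than once, unequally between libraries. Other rows also had equal or near-equal levels in every library, such as miR-122-5p with miR-122b-3p and miR-129-5p with miR-129b-3p. Percentages over all tested miRNAs may therefore count some reads more than once, which was not tested. On the TMM scale the sum of the 9 guide strands was 66993, 66165 and 45964 CPM in KO (59707 ± 11909, SD, n = 3) and 73667, 69607 and 73164 CPM in WT (72146 ± 2213, SD, n = 3). All 3 KO sums were below all 3 WT sums, and KO replicate 3 was lowest.

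Levels within the family spanned more than 100-fold. The 3 most abundant members were let-7f-5p, let-7i-5p and let-7g-5p, at 22277 ± 847, 18591 ± 448 and 17915 ± 533 CPM in WT (SD, n = 3). They were followed by let-7c-5p (5953 ± 227 CPM), let-7a-5p (4502 ± 159 CPM), let-7b-5p (1212 ± 42.2 CPM), let-7d-5p (799.7 ± 20.8 CPM), let-7e-5p (751.4 ± 35.3 CPM) and miR-98-5p (146.6 ± 4.48 CPM). In this order let-7i-5p and let-7g-5p overlapped in both genotypes, and so did let-7d-5p and let-7e-5p. Every other pair of neighbours kept its order in 6 of 6 libraries without overlap. In KO the mean of let-7e-5p (718.0 ± 166 CPM) was above that of let-7d-5p (596.1 ± 103 CPM, SD, n = 3), with the order of the pair reversed in KO replicate 3 alone, while that of let-7i-5p and let-7g-5p was reversed in KO replicate 2. As ligation of adaptors favours some ends over others, levels of different miRNAs compare read numbers, not molecules.

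**Figure D1:**
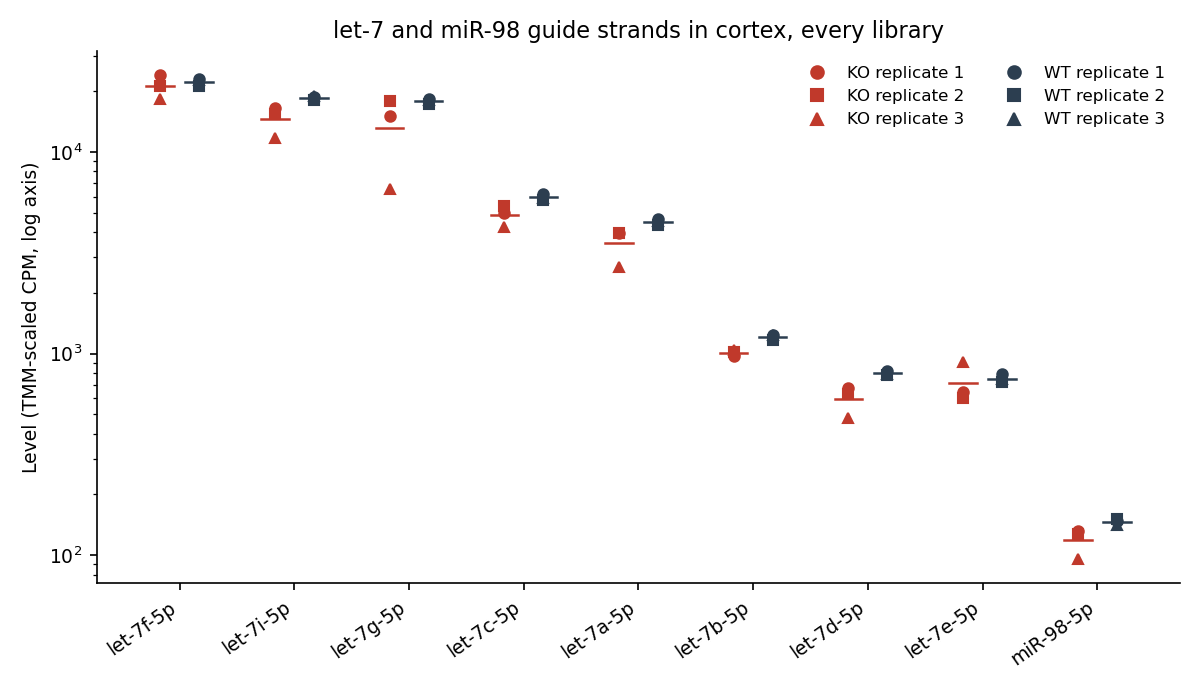
Level of each let-7 guide strand in each of 6 libraries, in TMM-scaled CPM on a log axis; points are libraries (3 KO in red, 3 WT in dark blue), lines are group means. WT points lie close together for every member, whereas KO replicate 3 is the lowest library for 7 of 9 members and the highest for let-7e-5p.

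The guide strands leaned lower in KO, by sizes that did not pass the test. All 9 had a log2 fold change below 0 in KO relative to WT, where 47.5% of the 541 tested miRNAs did. Their median was -0.31, against 0.03 over all tested. Fold changes ran from -0.45 for let-7g-5p to -0.07 for let-7e-5p. At an adjusted p below 0.05, 0 of 9 members and 0% of all tested miRNAs were called (edgeR quasi-likelihood test with Benjamini-Hochberg adjustment over 541), with adjusted p-values of the members from 0.72 to 0.904. At an unadjusted p below 0.05 there was 1 member, let-7d-5p, where 6.47% of all tested miRNAs passed and 3.14% did so with a lower level in KO. DESeq2 also gave 0 calls, with 1 member and 38 miRNAs in all at an unadjusted p below 0.05, and limma-voom gave 0 calls, with 2 and 34. In edgeR this number varied with the setting: 4 members and 39 miRNAs in all with upper-quartile scaling, and 0 and 18 with no scaling factor. Without KO replicate 2 it was 5 members and 50 of 559 miRNAs. Without KO replicate 1 it was 2 members and 71 of 561 miRNAs, and without KO replicate 3 it was 3 and 97 of 560. With WT replicates 1, 2 and 3 left out in turn it was 0 members each time, and 16 of 557, 14 of 564 and 18 of 554 miRNAs. For 6 of 9 members every KO library was below every WT library, where this held for 10.5% of all tested miRNAs. For 0 of 9 was every KO library above every WT library, where 5.18% of all tested were. Among the 142 tested miRNAs above 100 CPM in WT, as all 9 members are, 61.3% had a log2 fold change below 0 with a median of -0.08, and 21.1% had every KO library below every WT library. Members share libraries and close sequences, so these counts are not 9 separate observations. The median 95% interval of a member's log2 fold change reached 0.40 to either side.

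The 6 non-overlapping members were let-7a, let-7b, let-7c, let-7d, let-7i and miR-98. Groups stayed apart for let-7a, let-7c, let-7d and let-7i on other scales too, whereas miR-98-5p overlapped with no scaling factor and let-7b-5p with scaling without the 5 most abundant miRNAs. Values below are in the order of replicates 1, 2 and 3. Levels of let-7d-5p, from the chromosome 13 cluster, were 822.2, 781.2 and 795.6 CPM in WT against 675.6, 633.3 and 479.5 CPM in KO. KO replicate 3 was lowest, and KO replicates 1 and 2 were also below WT. The log2 fold change was -0.42 (SE 0.17, 95% interval -0.82 to -0.02, edgeR unadjusted p = 0.0399, adjusted p = 0.72), a level 25.5% lower in KO. Without KO replicate 3 the log2 fold change of let-7d-5p was -0.27. Its neighbour let-7a-5p, the member whose mature sequence is that of worm let-7, had 4638, 4327 and 4540 CPM in WT against 3983, 3972 and 2700 CPM in KO. Again KO replicate 3 lay apart, with the other KO libraries close to each other just below WT. The log2 fold change was -0.34 (SE 0.18, 95% interval -0.75 to 0.06), and -0.16 without KO replicate 3.

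For let-7i-5p, whose hairpin has no let-7 neighbour, the KO values were 16474, 15399 and 11670 CPM and the WT values 18674, 18108 and 18992 CPM. The highest KO library lay below the lowest WT library, with KO replicate 3 again lowest. Its log2 fold change was -0.36 (SE 0.16, 95% interval -0.72 to 0.00), and -0.21 without KO replicate 3.

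Of the chromosome 15 pair, let-7b-5p had 1235, 1163 and 1237 CPM in WT against 972.7, 1014 and 1044 CPM in KO. Its KO libraries were as close together as its WT libraries (SD 35.6 and 42.2 CPM), and KO replicate 3 was here the highest of the KO group. The log2 fold change of -0.26 (SE 0.14, 95% interval -0.58 to 0.05) corresponds to a level 16.6% lower. Levels of let-7c-5p were 6194, 5743 and 5921 CPM in WT against 4999, 5382 and 4236 CPM in KO, a log2 fold change of -0.29 (SE 0.14) that was -0.18 without KO replicate 3 and -0.41 without KO replicate 2. On chromosome X, miR-98-5p had 147.1, 150.8 and 141.9 CPM in WT against 131.7, 127.5 and 95.4 CPM in KO, with a log2 fold change of -0.31 (SE 0.20), and -0.16 without KO replicate 3.

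The remaining 3 members overlapped between genotypes. The values of let-7f-5p were 22894, 21312 and 22624 CPM in WT against 24082, 21197 and 18314 CPM in KO. KO replicate 1 was above every WT library and the other KO libraries below, and the log2 fold change was -0.07 (SE 0.14, 95% interval -0.40 to 0.26). Without KO replicate 3 it turned to 0.04, and without KO replicates 1 and 2, left out in turn, it was -0.16 and -0.12.

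In let-7g-5p, from the Wdr82 intron, the library KO replicate 3 stood far below the others. Its levels were 18272, 17302 and 18170 CPM in WT against 15030, 17840 and 6517 CPM in KO. KO replicate 2 lay inside the WT range, KO replicate 1 below it, and KO replicate 3 was 1.46 log2 units under the WT mean. The log2 fold change was -0.45 (SE 0.32) with all libraries, -0.11 without KO replicate 3 and -0.80 without KO replicate 2.

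The level of let-7e-5p stood the other way in that library, with 789.9, 720.6 and 743.7 CPM in WT against 644.8, 600.7 and 908.5 CPM in KO. KO replicates 1 and 2 were below every WT library and KO replicate 3 above every one. The log2 fold change was -0.07 (SE 0.19). It was -0.26 (edgeR adjusted p = 0.241) without KO replicate 3, and 0.02 without KO replicate 1 and also without KO replicate 2.

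**Figure D2:**
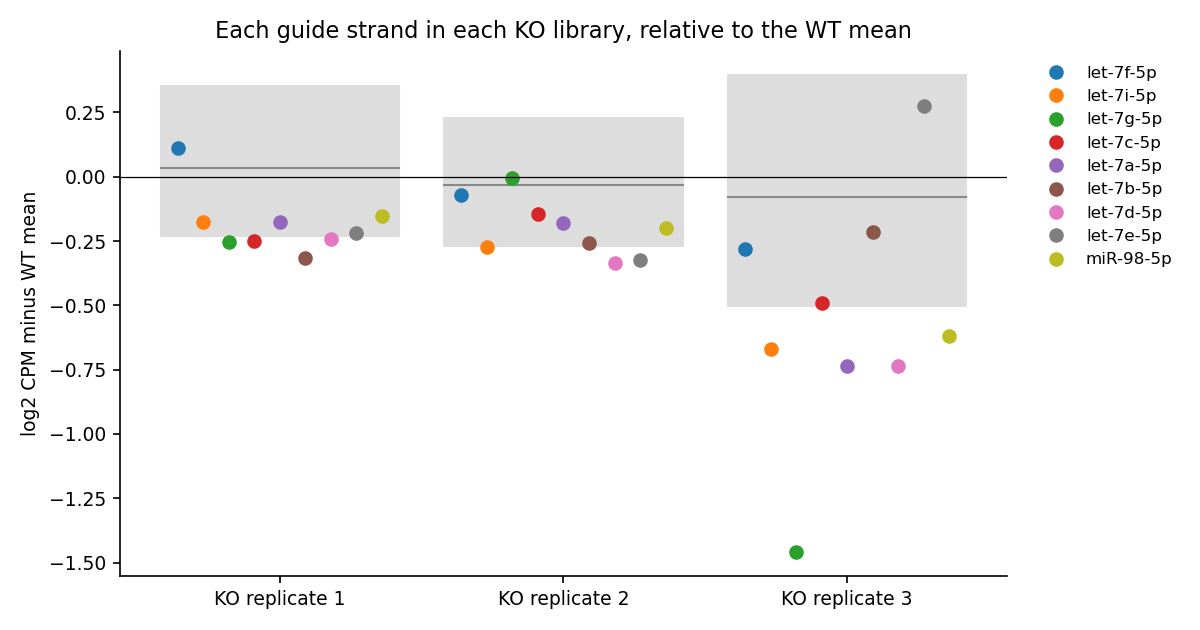
Difference in log2 CPM between each KO library and the WT mean for the 9 guide strands; grey bands span the middle 50% of all 541 tested miRNAs in that library and the grey line is their median. In KO replicates 1 and 2 the members lie between -0.34 and 0.11, and in KO replicate 3 they spread from -1.46 for let-7g-5p to 0.27 for let-7e-5p.

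The mean of the 9 differences from WT was -0.19, -0.20 and -0.55 log2 units in KO replicates 1, 2 and 3, while the median of all tested miRNAs in these libraries was 0.03, -0.03 and -0.08. In KO replicate 1, 8 of 9 members were below the WT mean, in KO replicate 2 all 9, and in KO replicate 3 again 8. Without KO replicate 3 the median log2 fold change of the members was -0.18 and 8 of 9 were below 0. That fit called 18 of 560 miRNAs (3.21%) at an adjusted p below 0.05 (edgeR), with 0 of the 9 members among them. The spread within KO was larger than in WT for 8 of 9 members, as for 82.8% of all tested miRNAs, and the median coefficient of variation of the members was 17.3% in KO and 3.48% in WT.

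The mix within the family does not depend on how libraries are scaled, and in WT it varied little. As a share of the summed reads of the 9, let-7g-5p took 24.8%, 24.9% and 24.8% in the WT libraries, and 22.4%, 27.0% and 14.2% in KO replicates 1, 2 and 3. The KO shares fell on both sides of WT. The share of let-7f-5p was 35.9%, 32.0% and 39.8% in KO (35.9% ± 3.90, SD, n = 3) and 31.1%, 30.6% and 30.9% in WT (30.9% ± 0.234). Every KO library was above every WT library. Shares of let-7a-5p went the other way, at 5.946%, 6.002% and 5.874% in KO and 6.296%, 6.217% and 6.205% in WT, and so did those of let-7d-5p, at 1.01%, 0.957% and 1.04% in KO and 1.12%, 1.12% and 1.09% in WT. A share can rise when other members fall, so these 3 shares are not independent of each other. The share of let-7e-5p was 1.98% in KO replicate 3 and between 0.908% and 1.07% in the other 5 libraries. These shares were set side by side without a test, and no rate of non-overlap for such shares was taken outside the family. For a related measure, read ratios between pairs of tested miRNAs above 100 CPM in WT, 22.1% did not overlap between genotypes.

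Read ratios between members within a library show the same in another form. Reads of let-7f-5p per read of let-7a-5p numbered 6.05, 5.34 and 6.78 in KO and 4.94, 4.92 and 4.98 in WT. The ratio of let-7f-5p to let-7d-5p was 35.6, 33.5 and 38.2 in KO and 27.8, 27.3 and 28.4 in WT. All 3 have hairpins in the chromosome 13 cluster, although let-7f and let-7a also have copies elsewhere. Of the 36 pairs of members, 7 (19.4%) had ratios that did not overlap between genotypes, and 5 of these involved let-7f-5p. Among all pairs of tested miRNAs 13.7% of ratios did not overlap, and among pairs above 100 CPM in WT 22.1% did not. The share among member pairs thus lies near that of abundant miRNAs in general. That let-7f-5p is the member most often involved was seen after the values were known.

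**Figure D3:**
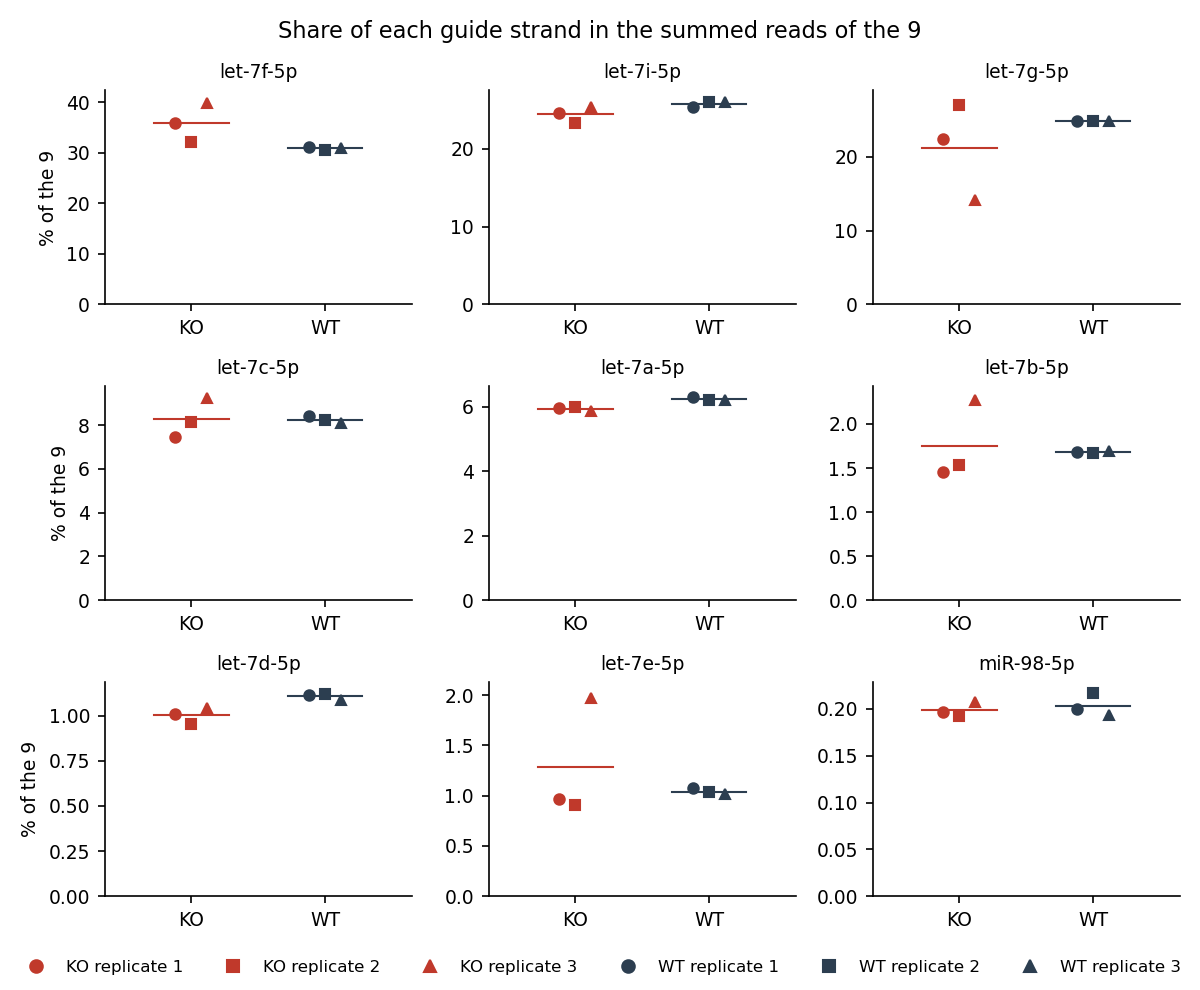
Share of each guide strand in the summed reads of the 9, in percent, with a separate axis from 0 for each member; points are libraries and lines are group means. The KO shares of let-7f-5p lie above and those of let-7a-5p and let-7d-5p below all WT shares, and let-7g-5p and let-7e-5p show KO replicate 3 apart, at 14.2% and 1.98%.

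The passenger strands were rare. Of 12 listed, 11 are in the table and 8 passed the count filter. Of these 8, 6 had a log2 fold change below 0 and 2 above, with a median of -0.24, and 0 passed the edgeR test (adjusted p from 0.749 to 0.949). For 0 of 8 were all KO libraries below or above all WT libraries, where this held for 15.7% of all tested miRNAs. The exception in abundance was let-7d-3p, with 130.2, 142.8 and 144.6 CPM in WT against 163.4, 98.6 and 102.4 CPM in KO (log2 fold change -0.20, SE 0.24). It made up 19.5%, 13.5% and 17.6% of the reads from the let-7d hairpin in KO and 13.7%, 15.5% and 15.4% in WT, with overlapping groups. For let-7b and let-7e the passenger share was at most 0.190% and 1.26% in any library.

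Passenger strands of let-7a-1 and let-7c-2 have the same sequence, which is shown because it leaves the arms of these hairpins inseparable.
let-7a-1-3p: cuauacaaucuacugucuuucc

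Other tested passenger strands stayed below 10 CPM. In KO replicate 3, let-7g-3p had 64 reads (exact 95% Poisson interval 49.3 to 81.7, counting error only), where the other 5 libraries had 5 to 16. The let-7g passenger thus made up 0.0809% of its hairpin's reads there and 0.00236% to 0.00681% elsewhere. This is the library in which the guide let-7g-5p was lowest. For let-7i, the passenger share was likewise highest in KO replicate 3, at 0.0522%, against 0.0116% to 0.0264% elsewhere. In the let-7e hairpin it was lowest there, at 0.434%, against 0.815% to 1.26%. Log2 fold changes were 1.28 (SE 0.86) for let-7g-3p, -0.09 (SE 0.41) for let-7i-3p and -0.29 (SE 0.29) for let-7e-3p. They were 0.38 (SE 0.39) for let-7a-2-3p, -0.52 (SE 0.44) for let-7a-1-3p, -0.54 (SE 0.33) for let-7b-3p and -0.53 (SE 0.51) for let-7c-1-3p. The 3 that did not pass the filter, let-7f-1-3p, let-7f-2-3p and miR-98-3p, had at most 14 reads in any library.

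**Figure D4:**
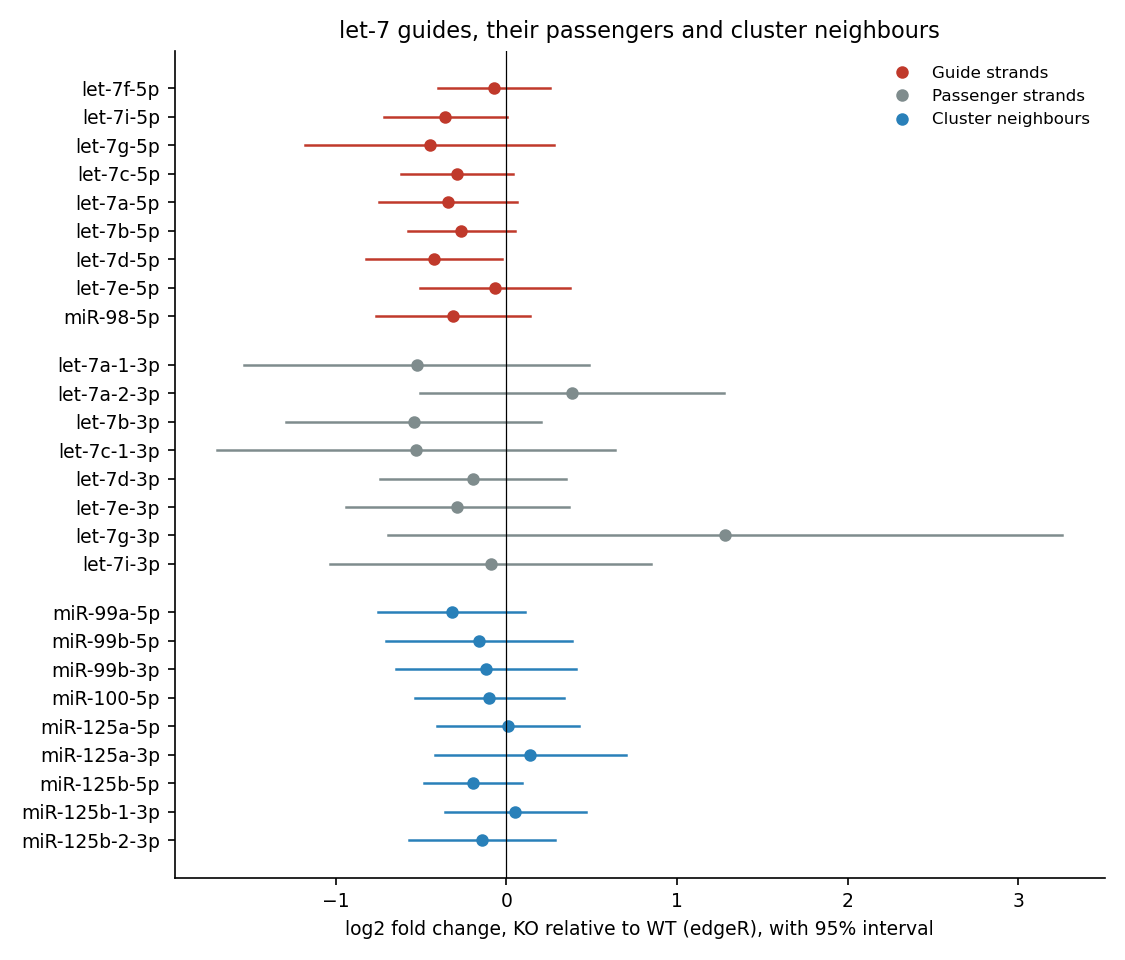
Log2 fold change of KO relative to WT (edgeR, points) with its 95% interval (lines) for 9 guide strands, 8 passenger strands and 9 cluster neighbours that passed the count filter. All 9 guides lie below 0 and of their intervals only that of let-7d-5p excludes it; all 8 passenger intervals include 0.

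Several let-7 hairpins are transcribed beside members of the miR-99/100 and miR-125 families, the latter homologs of worm lin-4. Of 11 such neighbours listed, 9 passed the count filter. Among these, 6 had a log2 fold change below 0 and 3 above, with a median of -0.12, and 0 passed the edgeR test (adjusted p from 0.749 to 0.993). For 1 of 9, miR-125b-5p, all KO libraries were below all WT libraries, a share near the 10.5% of all tested miRNAs. Levels of miR-125b-5p were 6295, 6038 and 5824 CPM in WT against 5123, 5459 and 5279 CPM in KO (log2 fold change -0.20, SE 0.13).

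On chromosome 17, 94 bases separate the hairpins of miR-99b and let-7e, and 367 bases those of let-7e and miR-125a. In KO replicate 3, let-7e-5p was 0.27 and miR-125a-5p 0.28 log2 units above the WT mean, whereas miR-99b-5p was 0.77 below it. Within libraries, reads of let-7e-5p per read of miR-125a-5p were 0.615, 0.696 and 0.713 in KO and 0.683, 0.741 and 0.718 in WT. Per read of miR-99b-5p they numbered 0.0782, 0.0966 and 0.225 in KO and 0.114, 0.112 and 0.101 in WT, so that KO replicate 3 stood apart in the latter ratio alone. The levels of miR-125a-5p were 1055 ± 93.0 CPM in WT against 1062 ± 205 CPM in KO, and miR-99b-5p had 6897 ± 480 CPM in WT against 6170 ± 2100 CPM in KO (SD, n = 3 each). Their log2 fold changes were 0.01 (SE 0.18) and -0.16 (SE 0.24).

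On chromosome 16, miR-99a lies 656 bases before let-7c-1. Its 5p strand had 24183, 23531 and 23264 CPM in WT against 18756, 23806 and 14260 CPM in KO (log2 fold change -0.32, SE 0.19), with KO replicate 2 inside the WT range. On chromosome 9, miR-100-5p, whose hairpin lies 5211 bases before let-7a-2, had 20823, 19277 and 21868 CPM in WT against 21650, 22186 and 14039 CPM in KO (log2 fold change -0.10, SE 0.19). Reads of let-7a-5p per read of miR-100-5p were 0.184, 0.179 and 0.192 in KO, all below the WT ratios of 0.223, 0.224 and 0.208. Among pairs of tested miRNAs above 100 CPM in WT, 22.1% of ratios did not overlap between genotypes. Ratios of let-7c-5p to miR-99a-5p and miR-125b-5p overlapped, as did those of let-7e-5p to miR-99b-5p and miR-125a-5p. The other tested neighbours had log2 fold changes of -0.12 (SE 0.23) for miR-99b-3p, 0.14 (SE 0.25) for miR-125a-3p, 0.05 (SE 0.18) for miR-125b-1-3p and -0.14 (SE 0.19) for miR-125b-2-3p.

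**Figure D5:**
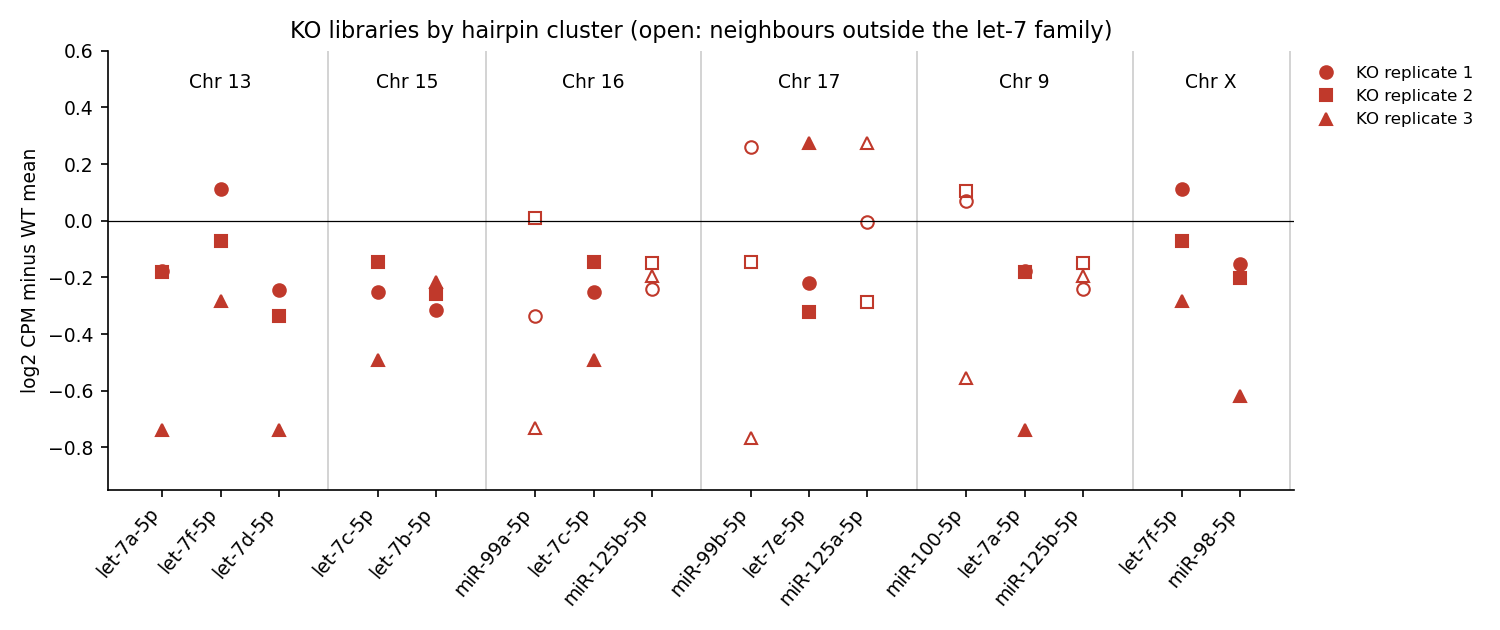
Difference in log2 CPM between each KO library and the WT mean for miRNAs grouped by hairpin cluster; filled symbols are let-7 members and open symbols neighbours outside the family, and members with 2 hairpins appear in both clusters. KO replicate 3 (triangles) is low for most, yet lies at 0.27 and 0.28 for let-7e-5p and miR-125a-5p beside -0.77 for miR-99b-5p.

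The miRNAs whose pattern was most like the family's were sought by the root mean square difference between profiles of log2 CPM over the 6 libraries, each centred on its own mean. The 5 closest of 532 other tested miRNAs to the mean profile of the 9 were miR-185-5p (0.0320 log2 units), miR-181a-1-3p (0.0674), miR-337-5p (0.0691), miR-103-3p (0.0771) and miR-203-3p (0.0886), where the median was 0.349. Closest among members were let-7c-5p (0.0427), miR-98-5p (0.0517) and let-7i-5p (0.0525), and farthest were let-7e-5p (0.322) and let-7g-5p (0.358). The last of these lay beyond the median of other miRNAs. Each member is itself part of the mean profile and the other miRNAs are not, so their distances are not on equal terms. The closest miRNA, miR-185-5p, had 248.1 ± 4.35 CPM in WT against 199.9 ± 21.5 CPM in KO (SD, n = 3 each, log2 fold change -0.31, SE 0.17, edgeR adjusted p = 0.749). Its differences from the WT mean were -0.23, -0.22 and -0.50 log2 units in KO replicates 1, 2 and 3, with KO replicate 3 lowest as in most members. This likeness follows from the choice of miR-185-5p by its profile over the same libraries and is not a separate observation.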

How the data were processed

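Per the labels' protocols, total RNA from cortices was ligated to adaptors at both ends, amplified, size-selected on a gel and sequenced from a single end. The submitters' processing notes list Bowtie, DESeq2 and mm10; for versions, settings, trimming and the treatment of reads with several matches, nothing is given in the sources used here. Per the file headers, the authors deposited raw read counts per mature miRNA and TPM values, which carry no length term; TPM served for an alternative alone. Reads are not unique molecules, as no molecular identifiers are described.

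Genotype came from the labels, and replicate numbers follow accession order. There were 0 value columns that belonged to no sample. Counts were filtered with filterByExpr (minimum count 10), scaled by TMM and tested with edgeR 4.0.16 in R 4.3.3 (quasi-likelihood, robust, 6 libraries, Benjamini-Hochberg over 541 miRNAs, threshold 0.05). The procedure was tested on simulated counts with log2 changes of 1 or 2 in either direction, of which 69.5% and 96.8% were called. Changes as small as those of the members were not simulated. Standard errors and 95% intervals come from the same fit. Levels are TMM-scaled CPM; differences of single libraries use log2 CPM with a prior count of 2. Shares and ratios use raw reads. Alternatives used DESeq2 1.42.0, limma 3.58.1 (voom, and log2 TPM with a pseudocount of 1), other scalings, no filter and left-out libraries. Sequences are from RefSeq (GRCm38.p6), hosts from GENCODE M21.

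The members and lists were chosen with earlier results of these data known. Named were all guide strands, all passenger strands and cluster neighbours past the filter, and the 5 other miRNAs with the closest profile; let-7j was added after its values were seen. The loop of the miR-98 hairpin is not reported here.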

Additional observations from a re-analysis of the deposited data

How the results depend on the processing

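The count of 0 miRNAs past the threshold held under every alternative except without KO replicate 3, where it was 18, so that over left-out libraries it ranged from 0 to 18; the cause was not tested. None of the 9 guide strands passed under any alternative. All 9 had a log2 fold change below 0 under each scaling, filter and tool, and 8 to 9 did with a library left out. Their median ranged from -0.42 without KO replicate 2 to -0.18 without KO replicate 3. Directions were reversed for let-7e-5p without KO replicate 1 (0.0205) and without KO replicate 2 (0.0168), and for let-7f-5p without KO replicate 3 (0.0383); these causes were not tested. With a library left out, the values ranged from -0.255 to 0.0205 for let-7e-5p and from -0.161 to 0.0383 for let-7f-5p. The number of members with every KO library below every WT library was 6 with no scaling factor and with scaling without the 5 most abundant miRNAs, and 6 to 7 with a library left out. Over all tested miRNAs this held for 8.69% and 7.58% on these scales, and for 12.6% to 20.5% with a library left out. The members concerned changed: let-7g-5p took the place of miR-98-5p with no scaling factor, and of let-7b-5p without the 5 most abundant miRNAs. This last set of alternatives, and a fit without miR-9b-3p (median -0.32), were chosen after seeing the data. No paired analysis was possible because the labels give the genotypes no shared replicate numbers. With 3 libraries per genotype the intervals of single members still include differences from 55.8% lower (let-7g-5p) to 29.4% higher (let-7e-5p) in KO.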
